A study of Mus musculus with 7 samples.

Results

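The members are 10 genes of bone and cartilage differentiation, none of them a collagen gene, followed through p53-deficient mouse embryonic fibroblasts. They were taken by gene symbol from the deposited expression table, and all 10 were found among its 29955 gene rows. The 6 bone genes were Runx2, Sp7, Alpl, Spp1, Ibsp and Dmp1, and the 4 cartilage genes were Acan, Comp, Matn2 and Chad. In these cultures 3 of the 10, Spp1, Matn2 and Runx2, had 975 normalized reads or more in every library. The other 7 never exceeded 701 normalized reads, and Ibsp was represented by a single read over all 7 libraries.

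Bone and cartilage cells descend from shared mesenchymal progenitors, and embryonic fibroblast cultures hold cells of that lineage. Runx2 is the transcription factor that commits progenitors to the osteoblast fate, Sp7 (osterix) acts downstream of it, and the osteoblast then deposits a matrix that the phosphatase encoded by Alpl helps to mineralize. Chondrocytes, directed by Sox9, instead build a matrix rich in the proteoglycan aggrecan. Mdm2 is the ubiquitin ligase that targets p53 for degradation, and the study's title asks about p53-independent actions of Mdm2 through the Polycomb repressor complex PRC2, which silences developmental genes.

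All 7 libraries came from embryonic fibroblasts of C57BL/6 mice that lacked p53, so no library with intact p53 was analysed here. A pair of libraries carried the C462A substitution of Mdm2 as a knock-in (p53KO Mdm2 C462A KI, below C462A KI; n = 2), which lies in the RING domain that gives Mdm2 its ligase activity. Another pair lacked Mdm2 as well (p53Mdm2 KO; n = 2), and the controls lacked p53 alone (p53 KO; n = 3). The labels name neither the alleles nor the embryo or culture behind each replicate, so the spread that the p-values rest on may be technical. Recovered totals, with M for 1e6 reads, ran from 28.5 M to 41.5 M reads per library. Values below are normalized reads, recovered from the deposited log2-like values and comparable between libraries for 1 gene; a count of 0 still allows up to 3 reads, or 2.65 to 3.86 normalized reads, from counting error alone.

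Neither targeted gene was at 0 in any library. Mdm2 had 2033 and 2887 normalized reads in the libraries labelled C462A KI, 1575 and 2334 in those labelled p53Mdm2 KO, and 1746, 1994 and 1914 in those labelled p53 KO. Both C462A KI libraries lay above all 3 p53 KO libraries, and the p53Mdm2 KO libraries lay on either side of them. Trp53, the p53 gene, had 1339 and 1668 normalized reads in C462A KI, 1603 and 1775 in p53Mdm2 KO, and 687, 1396 and 1244 in p53 KO, so both p53Mdm2 KO libraries lay above all 3 p53 KO libraries. The labels do not say which exons were removed, so a total per gene cannot check the genotypes, and each genotype named below, with every direction drawn from it, is the one on the label.

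Some libraries stood apart from the rest. In p53 KO replicate 1, 218 of 16900 tested genes lay more than 4-fold above every other library and 717 more than 4-fold below, in C462A KI replicate 2 these counts were 126 and 51, and in p53Mdm2 KO replicate 2 they were 11 and 119. The other 4 libraries had at most 12 above and 14 below. All 8 fibroblast marker genes were read in every library. Across libraries Col1a1 ranged from 187977 to 689145 normalized reads, Fn1 from 156823 to 524663, Pdgfra from 2651 to 16430.4 and Pdgfrb from 9705 to 24993. However, Col1a2 (3456 normalized reads) and Thy1 (99.1) in p53 KO replicate 1 were more than 4-fold below the other 6 libraries, whose lowest values were 175050.0 and 6592.

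Promoter sequences are shown for 5 members because Runx2 binds DNA and because 3 of them, Dmp1, Ibsp and Spp1, are neighbours on chromosome 5 that were read at very different levels. Each is the 250 bases before an annotated transcription start, 5' to 3' on the gene's strand, from RefSeq on build GRCm38.p6. The deposited values carry no coordinates, and the build named for them is mm9. Capitals mark the core letters that RUNX factors recognise, ACCACA, searched on both strands.
Runx2 promoter, GRCm38.p6 chr17:44814628-44814877, minus strand: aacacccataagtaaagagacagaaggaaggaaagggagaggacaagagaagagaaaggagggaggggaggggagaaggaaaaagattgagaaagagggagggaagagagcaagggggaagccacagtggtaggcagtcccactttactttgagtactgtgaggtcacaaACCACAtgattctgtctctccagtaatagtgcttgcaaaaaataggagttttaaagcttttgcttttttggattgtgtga
Spp1 promoter, GRCm38.p6 chr5:104434861-104435110, plus strand: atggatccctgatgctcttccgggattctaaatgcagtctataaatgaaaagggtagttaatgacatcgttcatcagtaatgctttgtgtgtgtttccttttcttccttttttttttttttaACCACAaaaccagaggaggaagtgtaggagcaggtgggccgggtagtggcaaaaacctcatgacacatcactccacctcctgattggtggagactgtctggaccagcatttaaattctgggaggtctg
Dmp1 promoter, GRCm38.p6 chr5:104197325-104197574, plus strand: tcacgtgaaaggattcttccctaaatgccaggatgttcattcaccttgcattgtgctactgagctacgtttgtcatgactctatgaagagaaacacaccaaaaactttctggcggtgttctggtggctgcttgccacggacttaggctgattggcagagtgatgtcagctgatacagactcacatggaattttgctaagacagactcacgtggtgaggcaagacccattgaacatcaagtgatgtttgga
Ibsp promoter, GRCm38.p6 chr5:104299037-104299286, plus strand: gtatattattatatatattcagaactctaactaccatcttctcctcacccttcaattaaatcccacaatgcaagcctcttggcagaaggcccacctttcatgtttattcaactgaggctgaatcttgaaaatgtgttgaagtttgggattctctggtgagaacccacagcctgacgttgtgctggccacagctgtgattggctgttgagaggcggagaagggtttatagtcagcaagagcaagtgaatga
Acan promoter, GRCm38.p6 chr7:79052976-79053225, plus strand: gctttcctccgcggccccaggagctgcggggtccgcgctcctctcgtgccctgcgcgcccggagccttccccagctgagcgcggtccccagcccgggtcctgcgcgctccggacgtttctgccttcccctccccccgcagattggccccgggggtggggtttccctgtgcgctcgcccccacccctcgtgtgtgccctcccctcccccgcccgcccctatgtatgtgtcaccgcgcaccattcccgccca
RefSeq windows were found for 7 members, and ACCACA was present in 2 of them, Runx2 and Spp1, at 80 and 128 bases before the start. Of all 32851 promoter windows of this length, 14.0% held it on either strand. The Acan window was rich in G and C (74.4%) and held 3 copies of the GC box GGGCGG or its reverse complement, which occurred at least once in 32.7% of all windows. These matches describe letters only, and say nothing about binding in these cells.

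Runx2, the osteoblast master regulator, had overlapping values in all 3 genotypes. It had 2204 and 975 normalized reads in C462A KI, 1628 and 1711 in p53Mdm2 KO, and 2413, 1379 and 1505 in p53 KO. The highest library was p53 KO replicate 1 and the lowest C462A KI replicate 2, the same libraries that stood apart across the table. Against p53 KO, the difference was -0.22 for C462A KI (95% interval -1.17 to 0.73, limma adjusted p = 0.882) and -0.04 for p53Mdm2 KO (-0.98 to 0.91, limma adjusted p = 1.00). All differences are given on the log2-like scale of the deposited values, where genes with few reads are compressed. Runx2 shares its locus with Supt3 and with antisense transcripts on the opposite strand.

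Sp7, which osteoblast precursors need after Runx2, was almost unread. Its raw counts were 2 and 6 reads in C462A KI, 4 and 16 in p53Mdm2 KO, and 1, 2 and 2 in p53 KO. Both p53Mdm2 KO libraries had more normalized reads (3.71 and 20.6) than any p53 KO library (0.909, 1.86 and 2.16). For p53Mdm2 KO replicate 1 this rests on 4 reads against 1, 2 and 2, which is within counting error. Its mean of 5.22 normalized reads over all libraries was below the minimum of 10 set for testing, so Sp7 was not in the main fit. With no filter on low values, its difference from p53 KO was 0.26 for C462A KI and 0.81 for p53Mdm2 KO. That setting called 0 members in either comparison.

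Spp1 (osteopontin), a phosphorylated matrix glycoprotein that binds integrins, was the most abundant member. It had 34199 and 13546 normalized reads in C462A KI, 41591 and 18387 in p53Mdm2 KO, and 9958, 15944 and 12913 in p53 KO. Both libraries labelled p53Mdm2 KO lay above all 3 p53 KO libraries, while C462A KI replicate 2 lay within the p53 KO range. The group means were 23873 ± 14604 in C462A KI (SD, n = 2), 29989 ± 16408 in p53Mdm2 KO (SD, n = 2) and 12938 ± 2993 in p53 KO (SD, n = 3). The difference from p53 KO was 0.76 for C462A KI (SE 0.51, 95% interval -0.47 to 1.99, limma adjusted p = 0.650) and 1.12 for p53Mdm2 KO (SE 0.51, -0.11 to 2.35, limma adjusted p = 1.00). Neither passed the test, and the C462A KI difference was 1.43 without C462A KI replicate 2 and 0.09 without C462A KI replicate 1. Without p53Mdm2 KO replicate 1 and replicate 2 the p53Mdm2 KO difference was 0.53 and 1.71.

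Macrophages and osteoclasts also express Spp1, and their markers varied between libraries. The summed level of the 10 markers in the table was 5905 and 2502 normalized reads in C462A KI, 5553 and 1309 in p53Mdm2 KO, and 1626, 2144 and 4355 in p53 KO. Most of each sum was Ctsk, which fibroblasts express too. The defining macrophage genes Emr1 and Tyrobp were at 0 in C462A KI replicate 2, p53Mdm2 KO replicate 2 and p53 KO replicate 1, and elsewhere ranged from 17.6 to 174 and from 8.35 to 61.5 normalized reads. Within each mutant genotype the library with more Spp1 also had the higher marker sum, whereas in p53 KO the library with the highest sum, replicate 3, had the middle Spp1 value. The macrophage receptor gene Csf1r had 49.1 and 13.2 normalized reads in C462A KI, 83.5 and 36.1 in p53Mdm2 KO, and 138, 61.3 and 325 in p53 KO. Itgam ranged from 204 to 319 over all libraries, and the osteoclast phosphatase gene Acp5 had 170.4 and 235 in C462A KI, 141 and 50.2 in p53Mdm2 KO, and 13.6, 83.5 and 107 in p53 KO. The part of these markers in the Spp1 values was not tested. In bulk RNA, fewer cells of a type and less RNA per cell cannot be told apart.

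**Figure D1:**
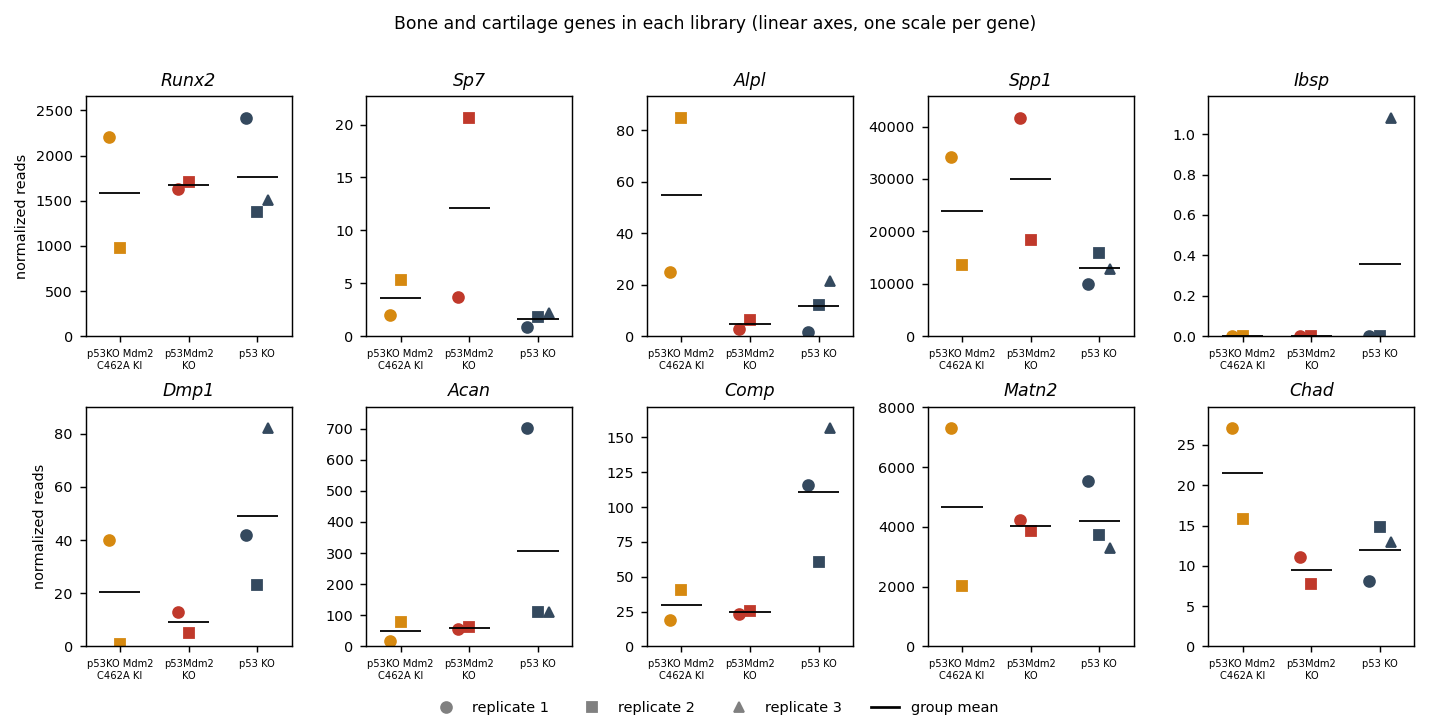
Normalized reads (y axis, linear, one scale per gene) of the 10 members in each library, by genotype (x axis); symbols mark the replicate number and lines the group mean. Comp and Acan lie lower in all 4 C462A KI and p53Mdm2 KO libraries than in all 3 p53 KO libraries, while Runx2 and Matn2 overlap between genotypes.

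The related genes beside Spp1 were hardly read. Along chromosome 5 the order is Dspp, Dmp1, Ibsp, Mepe, Spp1, a cluster of related acidic phosphoproteins of bone and tooth matrix. Ibsp (bone sialoprotein), which nucleates mineral, had 1 read in p53 KO replicate 3 and 0 in the other 6 libraries. Dspp had 2 reads and Mepe 1 read over all 7 libraries. Pkd2, the gene that follows Spp1 and belongs to another family, had a mean of 8657 normalized reads. Per kilobase of exon, Spp1 averaged 12703 normalized reads, Dmp1 10.7 and Ibsp 0.0745.

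Dmp1 (dentin matrix protein), typical of osteocytes, was the member of that cluster with intermediate values. It had 40.1 and 0.882 normalized reads in C462A KI, 13.0 and 5.15 in p53Mdm2 KO, and 41.8, 23.2 and 82.0 in p53 KO. Both p53Mdm2 KO libraries lay below every p53 KO library, and C462A KI replicate 2, with 1 read, was more than 4-fold below every other library. Against p53Mdm2 KO replicate 2 this rests on 1 read against 4, which is within counting error. The difference from p53 KO was -1.15 for C462A KI (SE 0.68, limma adjusted p = 0.604) and -1.35 for p53Mdm2 KO (SE 0.68, limma adjusted p = 1.00). Without C462A KI replicate 2 the C462A KI difference was -0.10, and without C462A KI replicate 1 it was -2.20.

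**Figure D2:**
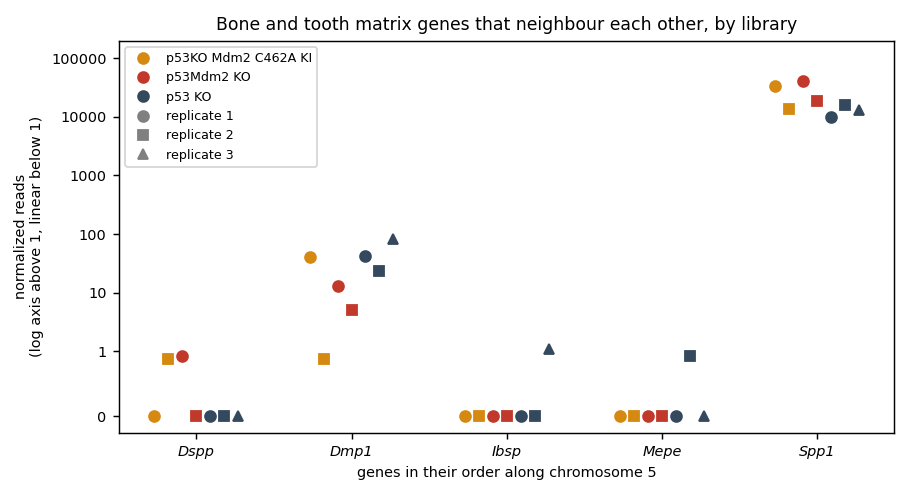
Normalized reads (y axis, logarithmic above 1 and linear below) of 5 neighbouring matrix genes in their order along chromosome 5 (x axis), 1 point per library, coloured by genotype and shaped by replicate. Spp1 lies between 9958 and 41591 in all libraries, Dmp1 between 0.882 and 82.0, and the other 3 genes at 0 or 1 read.

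Alpl, the tissue-nonspecific alkaline phosphatase that frees phosphate for mineral, was read most in C462A KI. It had 25.1 and 84.7 normalized reads in C462A KI, 2.78 and 6.44 in p53Mdm2 KO, and 1.82, 12.1 and 21.6 in p53 KO. Both C462A KI libraries lay above every library of either other genotype, and p53Mdm2 KO lay within the p53 KO range. The group means were 54.9 ± 42.2 in C462A KI (SD, n = 2), 4.61 ± 2.58 in p53Mdm2 KO (SD, n = 2) and 11.8 ± 9.88 in p53 KO (SD, n = 3). The C462A KI difference was 1.36 from p53 KO and 1.78 from p53Mdm2 KO. Alpl reached the minimum for testing only through C462A KI, since the other 5 libraries averaged 8.94 normalized reads, so both differences are given as a description, with no test. With C462A KI replicate 2 left out they were 0.72 and 1.143, and the difference from p53 KO was 0.35 with p53 KO replicate 1 left out as well.

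Among the cartilage genes, Comp gave the clearest separation of the genotypes. Comp, the cartilage oligomeric matrix protein of cartilage and tendon, had 19.0 and 40.6 normalized reads in C462A KI, 23.2 and 25.8 in p53Mdm2 KO, and 115, 60.3 and 156 in p53 KO. All 4 libraries labelled with altered Mdm2 lay below all 3 p53 KO libraries, as did 4.87% of all tested genes, and 0 of the 8 tested members lay above them all, against 4.78%. Group means were 29.8 ± 15.2 in C462A KI (SD, n = 2), 24.5 ± 1.81 in p53Mdm2 KO (SD, n = 2) and 110.7 ± 48.2 in p53 KO (SD, n = 3). The difference from p53 KO was -1.41 for C462A KI (SE 0.41, 95% interval -2.40 to -0.42, unadjusted p = 0.0126, limma adjusted p = 0.437) and -1.54 for p53Mdm2 KO (SE 0.41, -2.53 to -0.55, unadjusted p = 0.00835, limma adjusted p = 1.00). Over all alternatives tried the C462A KI difference stayed between -1.85 and -1.06 (limma adjusted p from 0.354 to 0.999) and the p53Mdm2 KO difference between -2.04 and -1.29 (limma adjusted p from 0.633 to 1.00). The 2 mutants did not separate from each other (0.13, 95% interval -0.95 to 1.22, limma adjusted p = 1.00).

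Acan (aggrecan), the large aggregating proteoglycan of cartilage, showed the same order with 1 extreme library. It had 19.0 and 79.4 normalized reads in C462A KI, 55.7 and 63.1 in p53Mdm2 KO, and 701, 109.5 and 111 in p53 KO. Every library labelled with altered Mdm2 again lay below every p53 KO library, and p53 KO replicate 1 was more than 4-fold above all others. The difference from p53 KO was -1.93 for C462A KI (SE 0.84, 95% interval -3.96 to 0.09, limma adjusted p = 0.495) and -1.55 for p53Mdm2 KO (SE 0.84, -3.58 to 0.48, limma adjusted p = 1.00). The C462A KI difference was -1.22 without C462A KI replicate 1. Without p53 KO replicate 1 the differences of C462A KI and p53Mdm2 KO were -1.11 (limma adjusted p = 0.442) and -0.73 (limma adjusted p = 0.999), and with C462A KI replicate 2 left out too, -1.83 (limma adjusted p = 0.406) and -0.73 (limma adjusted p = 0.739).

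Matn2 and Chad did not follow Comp and Acan. Matn2 (matrilin-2), a filament-forming adaptor protein found in many connective tissues, had 7298 and 2036 normalized reads in C462A KI, 4215 and 3864 in p53Mdm2 KO, and 5547, 3729 and 3305 in p53 KO. The C462A KI libraries were the highest and the lowest of all 7, so the groups overlapped. Its difference from p53 KO was -0.08 for C462A KI (95% interval -1.35 to 1.18, limma adjusted p = 0.971) and -0.02 for p53Mdm2 KO (-1.28 to 1.24, limma adjusted p = 1.00). As for Runx2, the 2 highest libraries were C462A KI replicate 1 and p53 KO replicate 1 and the lowest C462A KI replicate 2.

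Chad (chondroadherin), a leucine-rich protein that binds cartilage cells, had 27.1 and 15.9 normalized reads in C462A KI, 11.1 and 7.73 in p53Mdm2 KO, and 8.18, 14.9 and 12.9 in p53 KO. Both C462A KI libraries lay above every other library, by a narrow margin for replicate 2. The difference was 0.44 from p53 KO (95% interval -0.21 to 1.08, limma adjusted p = 0.620) and 0.59 from p53Mdm2 KO (-0.12 to 1.30, limma adjusted p = 1.00). Without C462A KI replicate 1 these were 0.22 and 0.37, and without C462A KI replicate 2 the difference from p53 KO was 0.66. Chad overlaps Acsf2, a gene on the opposite strand that had a mean of 1275 normalized reads, so its few reads cannot be assigned to it with certainty. Matn2 overlaps 9430069I07Rik (mean 9.50), also on opposite strands. Spp1 overlaps Gm42793 on the same strand, a gene that was not among the deposited gene rows.

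Levels of different genes were compared per kilobase of exon, using GENCODE vM21 lengths, which may differ from the gene models the authors counted on. Spp1 ranked 125 of 12524 tested genes with a length, Matn2 (703 normalized reads per kb) ranked 3137 and Runx2 (238) ranked 6557. Comp (26.1), Acan (22.1), Dmp1 (10.7), Alpl (8.75) and Chad (8.31) ranked between 10552 and 11671. The last 3 differ by less than their spread over libraries, which for Alpl alone ran from 0.721 to 33.6 normalized reads per kb.

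Limma called 0 of the 8 tested members in each of the 3 comparisons at an adjusted p under 0.05. It also called 0 of the 16900 genes (0%) in each, and limma's voom on recovered reads again called 0. The counts that follow leave Alpl out of the comparisons of C462A KI. For C462A KI against p53 KO, an unadjusted p under 0.05 was reached by 0 of the other 7 on the higher side, against 4.98% of all genes, and by 1 on the lower side (Comp), against 5.44%. Over all genes that was 1761 by limma and 1724 by voom. For p53Mdm2 KO against p53 KO it was 0 higher, against 1.51%, and 1 lower (Comp), against 1.49%, with 507 genes by limma and 470 by voom. For C462A KI against p53Mdm2 KO it was 0 higher, against 1.20%, and 0 lower, against 1.78%, with 503 genes by limma and 458 by voom.

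Counting libraries instead, in C462A KI every library lay above p53 KO for 1 of the 7 (Chad), against 14.1% of all genes, and below it for 2 (Acan and Comp), against 14.4%. In p53Mdm2 KO every library lay above p53 KO for 1 of 8 members (Spp1), against 8.99%, and below it for 3 (Dmp1, Acan and Comp), against 9.20%. Every C462A KI library lay above p53Mdm2 KO for 1 of the 7 (Chad), against 15.8%, and below it for 0, against 17.1%. Both comparisons with p53 KO share the same 3 control libraries. These counts describe the members that passed the filter and not all 10.

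**Figure D3:**
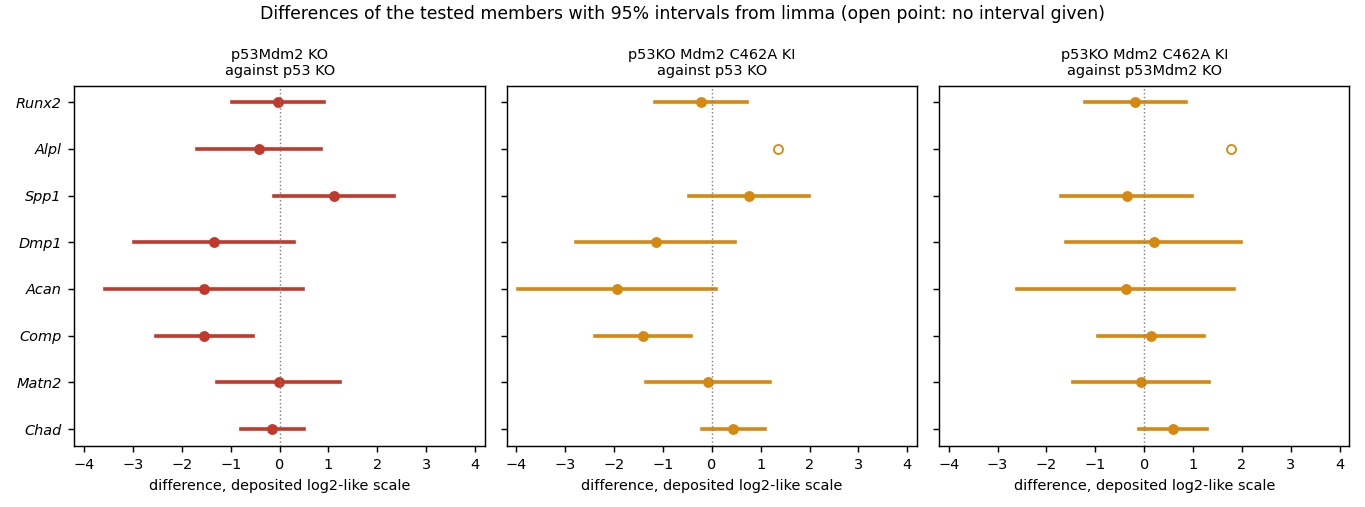
Differences of the 8 tested members on the deposited log2-like scale (x axis) with 95% intervals from limma, 1 panel per comparison and 1 row per gene. Comp intervals exclude 0 in both comparisons with p53 KO (from -2.40 to -0.42 and from -2.53 to -0.55) but did not pass after adjustment. Open points are Alpl in the comparisons of C462A KI, the group through which it passed the filter.

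Other regulators of bone formation gave no call. Of 18 listed osteoblast regulators, all tested, 0 passed in any comparison. Against p53 KO the C462A KI values were higher for 6 and lower for 12 (median -0.29, against 0.01 over all genes), and the p53Mdm2 KO values higher for 5 and lower for 13 (median -0.14, against -0.01). Dlx3 counts as lower in both comparisons. It had 78.2 normalized reads in p53 KO replicate 1 and at most 0.928 in any other library. It thus reached the minimum for testing only through p53 KO, and the filter favoured its lower side. Without C462A KI replicate 2 the C462A KI median changed sign, to 0.17 with 12 higher and 6 lower. Snai1, a repressor of epithelial genes that also restrains osteoblast maturation in mice, had 762 and 532 normalized reads in C462A KI, 1353 and 1356 in p53Mdm2 KO, and 2540.4, 1585 and 1539 in p53 KO. The 3 genotypes did not overlap, and the Snai1 difference was -1.50 for C462A KI against p53 KO (SE 0.28, limma adjusted p = 0.437), -0.43 for p53Mdm2 KO against p53 KO (limma adjusted p = 1.00, and -0.20 without p53 KO replicate 1) and -1.06 for C462A KI against p53Mdm2 KO (limma adjusted p = 1.00). Hey1, a Notch and BMP target, had 19.0 and 56.4 in C462A KI, 26.0 and 33.5 in p53Mdm2 KO, and 86.3, 118 and 291 in p53 KO (differences from p53 KO of -1.65 and -1.79, limma adjusted p = 0.437 and 1.00). Msx2, a homeobox regulator of skull bones, had 73.2 and 37.9 in C462A KI against 82.6 and 221 in p53Mdm2 KO (limma adjusted p = 1.00).

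Genes of bone matrix, mineral and bone turnover gave no call either. Of 21 listed, 20 were in the table and 15 were tested. In C462A KI 8 were higher and 7 lower than in p53 KO (median 0.00, against 0.01 over all genes), and in p53Mdm2 KO 8 were higher and 7 lower (median 0.14, against -0.01). The p53Mdm2 KO median was -0.38 without p53Mdm2 KO replicate 1 and 0.38 without p53Mdm2 KO replicate 2, and the C462A KI median -0.16 without C462A KI replicate 1 and 0.20 without C462A KI replicate 2. The osteocalcin genes Bglap and Bglap2, late markers of osteoblasts, reached at most 3.71 and 2.73 normalized reads, and Sost, the osteocyte gene of sclerostin, was at 0 in all 7 libraries. By contrast Sparc (osteonectin), which fibroblasts secrete as well, ranged from 108713 to 202560.0.

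In the same list, Gpnmb (osteoactivin), a membrane glycoprotein of osteoblasts and macrophages, had 26240.4 and 6374 normalized reads in C462A KI, 11940.1 and 5680.5 in p53Mdm2 KO, and 1279, 2049 and 5419.9 in p53 KO. Its difference from p53 KO was 2.41 for C462A KI (limma adjusted p = 0.443) and 1.76 for p53Mdm2 KO (limma adjusted p = 1.00). Its 2 highest libraries were those with the highest macrophage and osteoclast marker sums, which were mostly Ctsk. Ptprc, Csf1r, Cd68, Emr1, Itgam, Tyrobp and Fcer1g were each highest in p53 KO replicate 3, and Acp5, Ctsk and Oscar in other libraries. The part of these markers in the Gpnmb values was not tested. Without C462A KI replicate 1 the Gpnmb difference of C462A KI from p53 KO was 1.39, and without C462A KI replicate 2 it was 3.42. Tnfsf11, the gene of the osteoclast-inducing ligand RANKL, had 176 and 49.4 in C462A KI, 194 and 332 in p53Mdm2 KO, and 513, 436 and 452 in p53 KO. The Tnfsf11 difference was -2.07 for C462A KI against p53 KO (SE 0.48, limma adjusted p = 0.437) and -1.24 for C462A KI against p53Mdm2 KO (limma adjusted p = 1.00), or -1.31 and -0.48 without C462A KI replicate 2. Slc20a1, a phosphate importer, had 10976 and 14502 in C462A KI, 9581 and 8816 in p53Mdm2 KO, and 3559, 8456 and 6945 in p53 KO. Ank, which exports the mineral inhibitor pyrophosphate, had 7553 and 4388 in p53Mdm2 KO against 1325, 4141 and 3129 in p53 KO (difference 1.15, limma adjusted p = 1.00, and 0.67 without p53 KO replicate 1).

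Other cartilage genes gave no call, and their direction in p53Mdm2 KO depended on p53 KO replicate 1. Of 29 listed symbols 27 were in the table and 18 were tested. In C462A KI 5 were higher and 13 lower than in p53 KO (median -0.31), and in p53Mdm2 KO 4 were higher and 14 lower (median -0.53), where 51.2% and 48.2% of all genes were higher. Epyc, with 8.02 and 28.2 normalized reads in C462A KI, reached the minimum for testing only through that genotype. The filter thus favoured its place among the 5 higher. Without p53 KO replicate 1 the C462A KI values were higher for 6 and lower for 12 (median -0.19), and the p53Mdm2 KO values higher for 10 and lower for 8 (median 0.10). The C462A KI median was -0.78 without C462A KI replicate 1 and -0.49 without C462A KI replicate 2. With C462A KI replicate 2 and p53 KO replicate 1 both left out it was -0.05, with 9 higher and 9 lower. Sox9, the master regulator of cartilage, was read at 1821 and 577 normalized reads in C462A KI, 1490.1 and 793 in p53Mdm2 KO, and 1215, 934 and 1087 in p53 KO, with overlapping groups. Trpv4, a calcium channel of chondrocytes, had 82.2 and 97.9 in C462A KI, 208 and 258 in p53Mdm2 KO, and 759, 165 and 148 in p53 KO (C462A KI against p53 KO -1.40, limma adjusted p = 0.533, or -0.69 without p53 KO replicate 1, and against p53Mdm2 KO -1.20, limma adjusted p = 1.00). Sox6, a partner of Sox9, had 15.0 and 43.2 in C462A KI against 336, 44.6 and 59.3 in p53 KO (-1.44, limma adjusted p = 0.569, or -0.66 without p53 KO replicate 1). Xylt1, which starts glycosaminoglycan chains, had 155 and 115 in p53Mdm2 KO against 169, 280.3 and 297 in p53 KO, and Chst11, a chondroitin sulfotransferase, had 1063 and 998 in p53Mdm2 KO against 173, 969 and 770.1 in p53 KO.

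The high Acan value of p53 KO replicate 1 was accompanied by other cartilage genes in that library. Of the 18 tested genes of the cartilage list, 4 lay more than 4-fold above all other libraries there, where 1.29% of all tested genes did, and 1 (Chst11) lay more than 4-fold below, where 4.24% did. Nkx3-2, a repressor that promotes chondrocyte fate, had 1101 normalized reads in p53 KO replicate 1 and at most 43.8 elsewhere. Fgfr3, a growth plate receptor, had 1817 there and at most 273 elsewhere. Hapln1, the link protein that ties aggrecan to hyaluronan, had 285 there and at most 19.3 elsewhere. Sox6 had 336 there and at most 73.4 elsewhere. Comp did not share this pattern, since its highest value was in p53 KO replicate 3.

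Tendon genes also set p53 KO replicate 1 apart. The cartilage and tendon protein gene Thbs4, a relative of Comp, had 13.0 and 12.3 normalized reads in C462A KI, 4.64 and 2.58 in p53Mdm2 KO, and 3545, 29.7 and 87.4 in p53 KO. Fmod (fibromodulin) had 9413 in p53 KO replicate 1 and 212 to 1159 elsewhere, whereas Tnmd (tenomodulin) had 4.54 there and 494 to 3481 elsewhere. Prelp, a small leucine-rich proteoglycan, had 108 and 75.0 in C462A KI, 212 and 223 in p53Mdm2 KO, and 642, 208 and 1339 in p53 KO (C462A KI against p53 KO -2.42, limma adjusted p = 0.437). Of 8 listed tendon genes 7 were tested and 0 passed, with medians of -0.77 for C462A KI and -0.56 for p53Mdm2 KO against p53 KO. Thbs4 is among the 7 only through p53 KO, since it had 13.0 normalized reads or fewer in all other libraries. The filter thus favoured its lower side in both medians. Without p53 KO replicate 1 these medians were -1.27 and -0.61. Without C462A KI replicate 2 the C462A KI median changed sign, to 0.13, and without p53Mdm2 KO replicate 1 and replicate 2 the p53Mdm2 KO median was -1.01 and -0.12. Scx (scleraxis), the tendon transcription factor, had higher values in C462A KI than in p53 KO, with 685 and 496 against 213, 200.5 and 170.4 (1.50, limma adjusted p = 0.437). In p53Mdm2 KO it had 565 and 193, which overlapped both other genotypes. Scx was named after its values were seen.

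**Figure D4:**
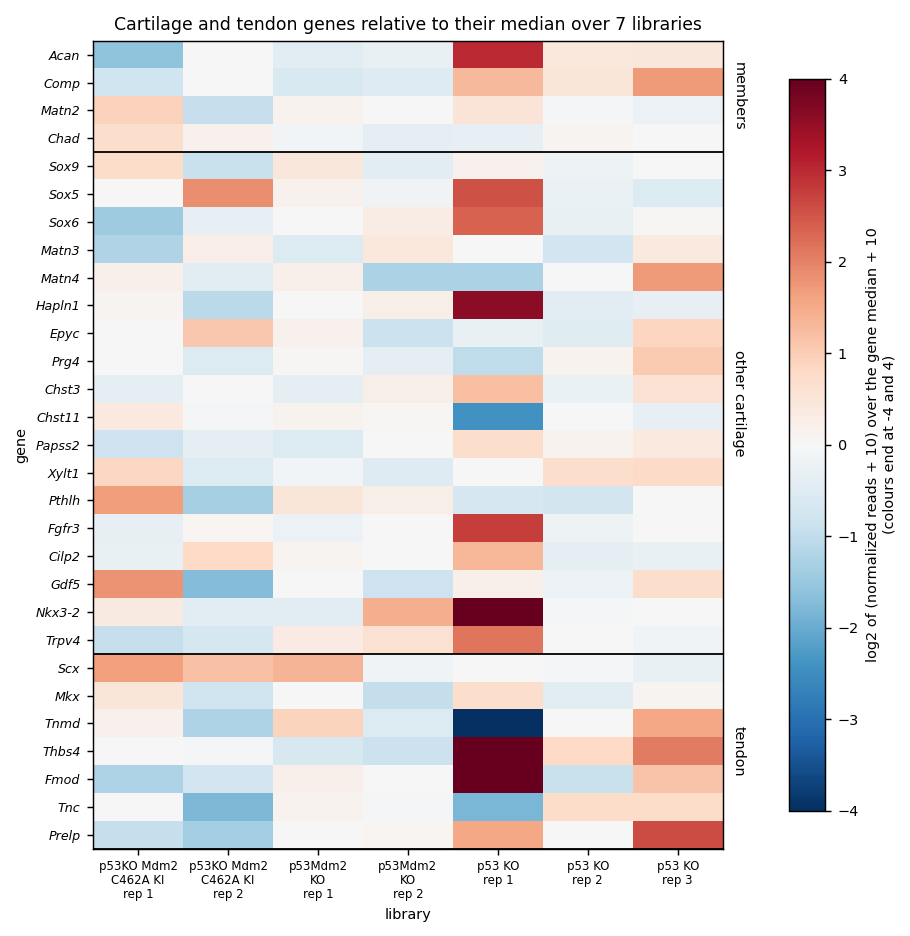
Tested cartilage members, other cartilage genes and tendon genes (rows) in 7 libraries (columns), as log2 of normalized reads plus 10 over the gene's median plus 10; red is above the median, blue below, and colours end at -4 and 4. The column of p53 KO replicate 1 is the most extreme for Acan, Hapln1, Fgfr3, Nkx3-2, Thbs4, Fmod and Tnmd, and Comp is above its median in all 3 p53 KO libraries.

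Markers of other cell types were low or mixed. Of 6 skeletal muscle markers 1 was tested, and Myod1 had 0 reads in 6 libraries and 1 read in p53 KO replicate 2. The endothelial gene Pecam1 stayed at 6.01 normalized reads or fewer. The summed level of the 4 endothelial markers was 449 and 572 in C462A KI, 823 and 1038 in p53Mdm2 KO, and 72.7, 508 and 549 in p53 KO, most of it Kdr except in p53 KO replicate 1. The 5 epithelial markers summed to 218 and 730.3 in C462A KI, 1261 and 65.7 in p53Mdm2 KO, and 595, 316 and 248 in p53 KO. The fibroblast gene Vim had 85185 and 40846 normalized reads in C462A KI, 110204 and 151271 in p53Mdm2 KO, and 155416, 143854 and 98410.4 in p53 KO. Col3a1 had 76168 and 64621 in C462A KI, 96702 and 28420.4 in p53Mdm2 KO, and 166679, 98194 and 166438 in p53 KO. Col1a1 had 384424 and 224903 in C462A KI, 392347 and 187977 in p53Mdm2 KO, and 457995, 532807 and 689145 in p53 KO. These 2 of the 8 fibroblast markers thus lay lower in all 4 altered libraries, as did Comp, Acan and 4.87% of all tested genes. In all 4, 0 of the 8 lay higher, against 4.78% of all tested genes. The part of these markers in the members' values was not tested.

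The genes whose pattern over the 7 libraries was most like a member's were found by Pearson's r on the deposited log2-like scale, among 11396 genes with a mean of at least 100 normalized reads. With 7 libraries that share their depth scaling and so many candidates, high values were found for every tested member, and they are given as description. Runx2 was closest to Amot (r = 0.97), Mef2c (0.96) and Mrpl11 (0.96). Spp1 was closest to Rufy1 (0.97), Hiat1 (0.96) and Dennd2c (0.96), Matn2 to Spice1 (0.97), Hspa12b (0.96) and Nr2f2 (0.96), and Dmp1 to Robo1 (0.98), Nynrin (0.97) and Colec12 (0.97). Acan was closest to Smarcd3 (0.99), Thsd1 (0.99) and Lzic (0.99). Comp was closest to Dnajb5 (0.99), Bace (0.97) and Rbm6 (0.97), Alpl to Rcor3 (0.98), Arl5b (0.97) and Nr2c1 (0.95), and Chad to Stxbp4 (0.96), Ftl2 (0.93) and Ftl1 (0.92).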

How the data were processed

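RNA from 7 fibroblast samples was sequenced as single reads of 50 bp from TruSeq libraries, per the labels' protocols. The authors deposited 1 log2-like value per gene and sample. CASAVA 1.8.2, Bowtie2 2.1.0, DESeq 1.14.0 and mm9 come from the submitters' processing notes, which assign no roles. How reads were counted, on which annotation and with which strand setting is not given in the sources used here. The constant lowest value (3.36) has the form of a variance-stabilizing transformation; inverting it and dividing by 1 step per library gave whole reads, within 0.05, for 100% of values above 0.

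Groups came from the sample titles. Limma 3.58.1 (R 4.3.3) was fitted to the deposited values with all 7 samples, a mean-variance trend and 4 residual degrees of freedom, on 16900 genes averaging 10 or more normalized reads. P-values were two-sided and Benjamini-Hochberg adjusted over all genes, with a threshold of 0.05. Simulated data were used to test the fit. Members and gene lists were chosen with earlier results of these data known. Named list genes were the 2 with the largest differences per list and comparison among those with a higher group mean of at least 100 and no overlap between libraries; further genes were named after their values were seen. Promoters were matched by symbol for 7 of 10 members. Alternatives covered the filter, scale, scaling, variance model, weights, replicate block and left-out samples.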

Additional observations from a re-analysis of the deposited data

How the results depend on the processing

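None of 447 alternative values of the 24 member differences passed limma's adjusted threshold. Of the 24, 14 never changed sign, among them those of Comp, Acan, Spp1, Dmp1 and Chad against p53 KO. Alpl is also among the 14, but the filter favoured the sign of its C462A KI differences, which remain a description. Counts of called members stayed at 0 throughout. The count of called genes stayed at 0 except with p53 KO replicate 1 and C462A KI replicate 2 both left out. There Ifi202b, named after its value was seen, was called lower in p53Mdm2 KO than in p53 KO. Ifi202b had 4.01 and 1286 normalized reads in C462A KI, 0 and 1.29 in p53Mdm2 KO, and 3.64, 1361 and 1148 in p53 KO. The left-out p53 KO replicate 1 was thus near the p53Mdm2 KO values, and the gene also differed widely between the C462A KI libraries. Sign changes in p53Mdm2 KO against p53 KO concerned Runx2 (library medians set equal 0.0068, quantile normalization 0.015, sample weights 0.19, both libraries left out 0.21, single samples left out -0.19 to 0.21) and Matn2 (0.023, 0.016, 0.15, 0.20 and -0.17 to 0.20 in the same order). In C462A KI against p53 KO they concerned Runx2 (sample weights 0.0035, both left out 0.61, single samples left out -0.80 to 0.36) and Matn2 (0.083, 1.05 and -0.999 to 0.83). In C462A KI against p53Mdm2 KO, leaving out both libraries turned Runx2 (0.40), Spp1 (0.31), Comp (-0.21) and Matn2 (0.85). Leaving out single samples there gave -0.76 to 0.40 for Runx2, -1.03 to 0.31 for Spp1, -0.21 to 0.48 for Comp, -0.98 to 0.85 for Matn2, -1.10 to 0.33 for Acan and -0.85 to 1.24 for Dmp1. Dmp1 also turned with log2(normalized reads + 1) (-0.077) and with voom (-0.40). List medians without single libraries were added after the data were seen. They include Dlx3, Epyc and Thbs4, which passed the filter only through the genotype where each was high. In p53Mdm2 KO against p53 KO they ran from -0.38 to 0.38 for bone matrix and mineral and from -0.53 to 0.10 for cartilage (0.10 with both left out). In C462A KI against p53 KO they ran from -0.79 to 0.17 for osteoblast regulators (0.23 with both left out), -0.16 to 0.20 for bone matrix and mineral and -1.67 to 0.13 for tendon. In C462A KI against p53Mdm2 KO they ran from -0.56 to 0.058 for regulators, -0.64 to 0.078 for bone matrix and mineral and -1.04 to 0.012 for tendon (0.058, 0.078 and 0.0043 with both left out). The cause was not tested. A genotype left with 1 sample is assumed to vary like the others. With the replicate block 0 genes and 0 members were called in each comparison. Deviations of same-numbered libraries from their group means correlated between -0.16 and 0.20. In a group of 2 the deviations mirror each other, so these values cannot decide whether the numbers pair samples. The labels do not say. Below about 30 normalized reads (Sp7, Ibsp, Dmp1, Alpl, Chad) depth limits what can be seen, and only 2 or 3 samples per genotype limit every test.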
